A study of Rattus norvegicus with 25 samples.

Results

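ENSRNOG00000054344 and ENSRNOG00000005634 are a pair of rat genes known here only by their Ensembl identifiers. They are 2 of the 32623 genes listed for every hippocampal library and 2 of the 13908 that had enough reads to be tested. Both were chosen by their high level 20 min after the forced swim test (FST) in this experiment: ENSRNOG00000054344 was selected from the comparison of the 20-m group with control rats, and ENSRNOG00000005634 from the comparison of the 20-m group with the 24-h group. The identifiers come without names in the files, and 0 of the 32623 matched the gene table used here, so neither gene is given a name, a position or a role, and markers of hippocampal cell types could not be checked. Whether ENSRNOG00000054344 is the same gene as a line of the study's list of changed genes under another identifier was not settled. Fos and Dusp1, which can be recognised among the identifiers (ENSRNOG00000008015 and ENSRNOG00000003977), served as points of comparison.

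Poly(A) RNA was sequenced from the hippocampus of 19 male Sprague Dawley rats. The FST places a rat in a cylinder of water that it cannot leave and is used as an acute stressor. The 20-m group (7 rats) had a pretest swim on the day before and was killed 20 min after the test, the 24-h group (6 rats) had the same swims and was killed 24 h after the test, and the control group (6 rats) did not undergo the FST. The labels name 5 batches: 3 rats of each group were in batch 1, batch 2 held 3 rats of the 20-m group, 3 of the 24-h group and 1 control rat (rat 25), and batches 3 to 5 were repeat runs of rat 10 of the 20-m group and of control rats 21 and 27. The 25 libraries were therefore 19 animals. Reads assigned to genes came to 6513105 to 7774070 per rat in the 20-m group, 6529745 to 8202472 in the 24-h group and 6217600 to 9032924 in the control group.

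Immediate early genes are transcribed within minutes of a stimulus without new protein synthesis, and their short-lived transcripts usually return to the resting level within hours. Fos encodes a partner in the AP-1 transcription factor and is widely used as a mark of recently active neurons. Dusp1 encodes a phosphatase that switches off MAP kinases. In the hippocampus both are induced by stress and by neuronal activity.

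RSEM, the program that assigned reads to genes, listed 1 transcript for each of the 2 genes, of 1470 bases for ENSRNOG00000054344 and 2059 bases for ENSRNOG00000005634. RSEM divides a read among genes when it matches several of them. For both genes the counts were whole numbers, to within 0.005, and their posterior SD was 0 in 25 of 25 libraries, as it was in 76.4% of the genes tested. Overlapping or antisense neighbours could not be checked. Per length, ENSRNOG00000054344 was at 4.77 TPM, a count corrected for transcript length and library size, in the mean of the control rats, which is the 24.6th percentile of the genes tested. ENSRNOG00000005634 was at 8.70 TPM, the 38.5th percentile. Fos was at 5.34 TPM and Dusp1 at 6.71 TPM, while the median gene was at 13.2 TPM, so all 4 genes were below the median level in resting hippocampus.

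The level of ENSRNOG00000054344 in the 20-m group was 10.7, 9.89, 9.54, 8.54, 11.5, 12.6 and 7.87 CPM in rats 1, 2, 5, 6, 7, 10 and 12. CPM are counts divided by library size on the CPM scale, with library sizes adjusted between rats by edgeR's TMM method. In the 24-h group it was 4.44, 8.12, 7.82, 4.93, 5.56 and 5.26 CPM in rats 13, 14, 15, 17, 18 and 19, and in the control group 4.75, 4.97, 6.13, 3.99, 5.47 and 4.68 CPM in rats 21, 22, 24, 25, 27 and 28. All 7 rats of the 20-m group were above every control rat. Rat 12 of the 20-m group was below rat 14 of the 24-h group, the only one of 42 pairs of rats in the other order. Rats 14 and 15, both of batch 2, were above every control rat, and the other 4 rats of the 24-h group lay within the range of the controls. The values rest on 51 to 92 counts per rat in the 20-m group, 32 to 62 in the 24-h group and 28 to 46 in the control group. Group means were 10.1 ± 1.65 CPM (SD, n = 7), 6.02 ± 1.56 CPM (SD, n = 6) and 4.999 ± 0.733 CPM (SD, n = 6) in the 20-m, 24-h and control groups.

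ENSRNOG00000005634 stood at 19.7, 17.5, 21.3, 23.1, 18.2, 15.7 and 18.97 CPM in rats 1, 2, 5, 6, 7, 10 and 12 of the 20-m group. In rats 13, 14, 15, 17, 18 and 19 of the 24-h group it stood at 14.5, 9.14, 8.95, 12.01, 11.3 and 13.1 CPM. In control rats 21, 22, 24, 25, 27 and 28 it stood at 9.997, 13.04, 17.3, 11.3, 9.23 and 15.9 CPM. All 7 rats of the 20-m group were above every rat of the 24-h group. Of the same 7 rats, 6 were above every control rat, and rat 10 was below control rats 24 and 28. Rats 14 and 15 of the 24-h group, which were high for ENSRNOG00000054344, were below every control rat for ENSRNOG00000005634. Counts per rat were 115 to 170 in the 20-m group, 63 to 111 in the 24-h group and 59 to 130 in the control group. The means were 19.2 ± 2.43 CPM (SD, n = 7) in the 20-m group, 11.5 ± 2.18 CPM (SD, n = 6) in the 24-h group and 12.8 ± 3.26 CPM (SD, n = 6) in the control group. Whether a lower level means fewer cells of a type or less RNA per cell cannot be told apart in whole tissue.

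**Figure D1:**
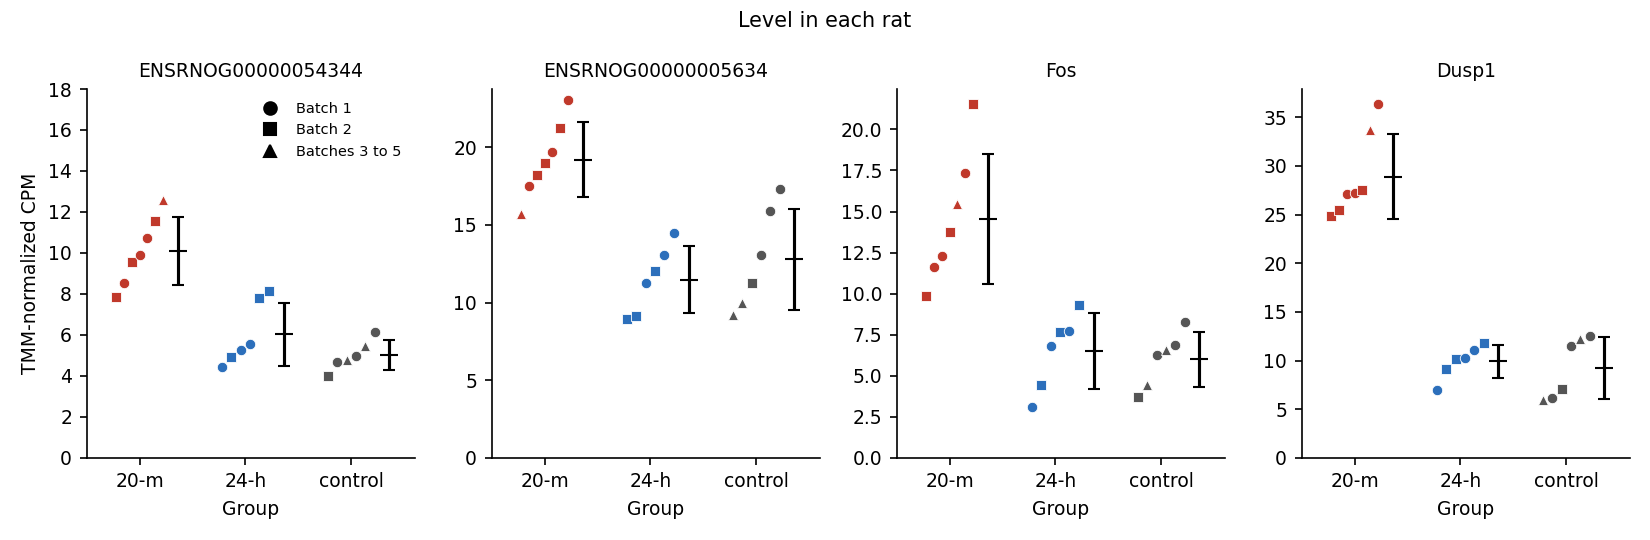
TMM-normalized CPM of ENSRNOG00000054344, ENSRNOG00000005634, Fos and Dusp1 in each rat of the 20-m, 24-h and control groups, on a linear axis. Points are rats and their shape gives the batch, and the bar beside them is the mean and SD of the group. For ENSRNOG00000054344 the 20-m rats lie between 7.87 and 12.6 CPM, above all controls, and for ENSRNOG00000005634 the control rats spread from 9.23 to 17.3 CPM.

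The high level at 20 min is the reason for which both genes were chosen, so its size is given as a description without a test. edgeR's quasi-likelihood model, fitted to all 19 rats with terms for group and batch, put ENSRNOG00000054344 at a log2 fold change of 1.02 (standard error 0.158, 2.03-fold) between the 20-m and control groups and of 0.72 (standard error 0.153) between the 20-m and 24-h groups. ENSRNOG00000005634 had log2 fold changes of 0.57 (standard error 0.112, 1.48-fold) against control rats and 0.81 (standard error 0.11, 1.75-fold) against the 24-h group. For Fos these values were 1.25 and 1.16, and for Dusp1 1.69 and 1.51. The 2 contrasts of each gene share the rats of the 20-m group.

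Genes were called differentially expressed (DEGs) at a Benjamini-Hochberg adjusted p under 0.05 in edgeR and a fold change over 1.5. At 20 min 6 of 13908 genes (0.0431%) were called higher than in control rats, and 5 (0.036%) were called higher than in the 24-h group. ENSRNOG00000054344 was taken from the first set and ENSRNOG00000005634 from the second, so their place in these sets is the choice itself and no result. In both comparisons 0 genes were called lower in edgeR, while DESeq2 called 0 lower against control rats and 11 lower against the 24-h group. At an unadjusted p under 0.05, 1050 genes passed in either direction against control rats and 1925 against the 24-h group. The last gene inside the limit on the adjusted p had 0.0253 and the first outside had 0.0852 in the comparison with controls, and 0.0239 and 0.0759 in the comparison with the 24-h group, all from edgeR. In edgeR ENSRNOG00000005634 was outside the limits in the comparison with controls, and so was ENSRNOG00000054344 in that with the 24-h group. Other settings put them inside: voom, ComBat and limma did so for both, DESeq2 for ENSRNOG00000054344, and leaving out rat 2 of the 20-m group for ENSRNOG00000005634, at a log2 fold change of 0.63 against controls. ENSRNOG00000054344 was outside the limits in the comparison with controls when rat 10 or control rat 25 was left out, at log2 fold changes of 0.94 and 0.93. Both comparisons hold the 20-m rats that entered the choice of the genes. Passing or missing the limits in them is therefore no separate evidence. Of the 10 early genes that can be recognised among the identifiers, 5 were called higher against control rats and 4 against the 24-h group, but the study had picked these genes on the same rats.

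A comparison that chose neither gene is that of the 24-h group with control rats, which asks whether the level after 1 day differed from that of unstressed rats. It is not independent of the choice, since the control rats also entered the contrast that chose ENSRNOG00000054344 and the 24-h rats the one that chose ENSRNOG00000005634. The first choice favours low control values and so a positive difference for ENSRNOG00000054344. The second favours low 24-h values and so a negative difference for ENSRNOG00000005634. Both fitted values have these signs, and the intervals and p-values are not corrected for the choice. The fitted log2 fold change of ENSRNOG00000054344 was 0.31 (95% confidence interval -0.07 to 0.68, adjusted p = 0.9999 in edgeR). Of 36 pairs of a 24-h and a control rat, the 24-h rat was higher in 25. ENSRNOG00000005634 had a log2 fold change of -0.24 (95% confidence interval -0.50 to 0.02, adjusted p = 0.9999 in edgeR), and the 24-h rat was higher in 14 of 36 pairs. Neither difference passed the test, and the intervals leave room for a level up to 0.68 higher for the first gene and down to 0.50 lower for the second on the log2 scale.

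Over all genes, 0 of 13908 (0%) were called in either direction in the 24-h group, with 441 at an unadjusted p under 0.05 in edgeR. DESeq2 and limma voom also called 0, with 351 and 407 at an unadjusted p under 0.05. Of the same 10 early genes, 0 were called and 8 had a fitted level above that of control rats. The median log2 fold change of the 10 was 0.14, against a median of -0.0014 over all genes tested. The study had picked these genes as higher shortly after the FST than in the same control rats. Picking them in this way favours low control values and so positive differences here. Their signs and median are therefore no separate evidence of a response that lasted to 24 h. For the pair of unnamed genes, labels were also exchanged between 24-h and control rats within batch 1 and within batch 2, in an exact permutation test over 10 rats and 80 arrangements (2-sided, smallest possible p = 0.0125). The mean difference on the log2 CPM scale was 0.21 for ENSRNOG00000054344 (exact p = 0.375) and -0.22 for ENSRNOG00000005634 (exact p = 0.15). These are again the signs that the choice favours, and exchanging labels does not correct for it.

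The batches did not give the same picture of the 24-h group for ENSRNOG00000054344. In batch 1 its mean was 5.08 CPM in 3 rats of the 24-h group and 5.26 CPM in 3 control rats, a log2 difference of -0.04. In batch 2 it was 6.96 CPM in 3 rats of the 24-h group, against 3.99 CPM in control rat 25, the lowest control, a log2 difference of 0.73. Without rat 25 the fitted log2 fold change of the 24-h group was 0.20. Fos and Dusp1 had the same signs, with log2 differences of -0.35 and -0.05 in batch 1 and 0.84 and 0.52 in batch 2. A single control rat gives no spread of its own in batch 2. ENSRNOG00000005634 was lower in the 24-h group in both batches, at 12.9 CPM against 15.4 CPM in controls of batch 1 and 10.03 CPM against 11.3 CPM in control rat 25 of batch 2. The 24-h rats entered the choice of this gene, which favours low values in them, so this direction is no separate evidence.

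At 20 min both genes were above control rats in every batch. The 20-m rats also entered the choice of both genes, so this direction is no separate evidence. For ENSRNOG00000054344 the log2 difference from controls was 0.86 for batch 1, 1.20 for batch 2 and 1.26 for the rats of batches 3 to 5, and the difference from the 24-h group was 0.90 in batch 1 and 0.47 in batch 2. For ENSRNOG00000005634 the differences from controls were 0.38, 0.77 and 0.70 in batch 1, batch 2 and batches 3 to 5, and those from the 24-h group 0.62 in batch 1 and 0.95 in batch 2. The smallest difference from controls was thus in batch 1 for both genes, the only batch with 3 rats on each side. In batch 1 the 3 rats of the 20-m group averaged 20.1 CPM for ENSRNOG00000005634, against 15.4 CPM in the 3 controls.

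**Figure D2:**
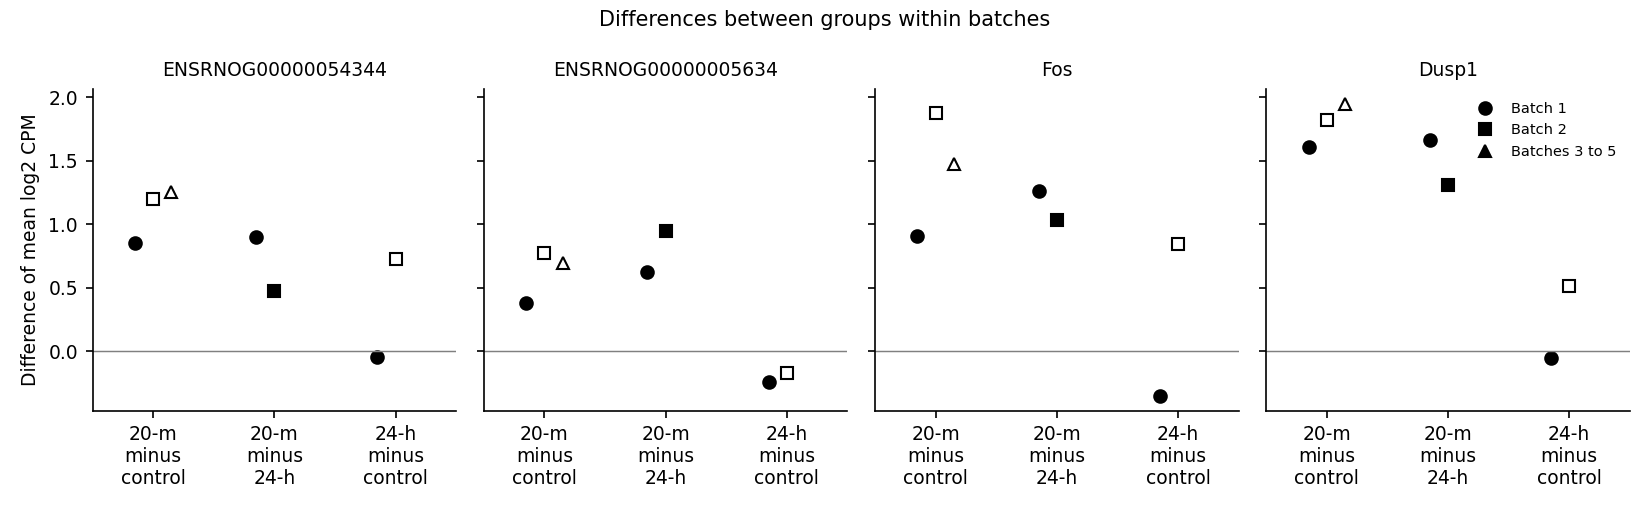
Differences of mean log2 CPM between groups, within batch 1 (circles), batch 2 (squares) and batches 3 to 5 (triangles), for ENSRNOG00000054344, ENSRNOG00000005634, Fos and Dusp1. An open symbol has a single rat on one or both sides. The 20-m group, whose rats entered the choice of both unnamed genes, is above the other groups in every batch. The 24-h group differs from controls by -0.04 and 0.73 for ENSRNOG00000054344 and by -0.25 and -0.17 for ENSRNOG00000005634.

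Batch itself went with the level of ENSRNOG00000005634. In the edgeR fit its log2 difference was -0.56 (standard error 0.139, adjusted p = 0.0146 in edgeR) between batches 3 to 5 and batch 1, just short of the fold change of 1.5 needed for a call, and -0.25 (standard error 0.1, adjusted p = 0.0918 in edgeR) between batch 2 and batch 1. Control rats 21 and 27 of batches 3 to 5 had the lowest control values and rat 10 the lowest of the 20-m group. ENSRNOG00000054344 differed by 0.24 (standard error 0.189, adjusted p = 0.483 in edgeR) between batches 3 to 5 and batch 1 and by 0.09 (standard error 0.141, adjusted p = 0.703 in edgeR) between batch 2 and batch 1. Neither gene was called, while 4.1% of genes were called between batches 3 to 5 and batch 1 and 3.93% between batch 2 and batch 1, in either direction. Without a batch term ENSRNOG00000005634 was outside the limits in the comparison of the 20-m with the 24-h group, at a log2 fold change of 0.74.

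The repeat runs of rats 10, 21 and 27 show the spread of single shallow libraries for genes at this level. These runs held 1614506 to 3937452 reads each, and their CPM take the TMM factor of the whole rat. ENSRNOG00000054344 was at 12.04, 11.5 and 13.2 CPM in the 3 runs of rat 10 of the 20-m group. In control rat 27 it was at 6.19, 4.81 and 5.40 CPM, and in control rat 21 at 7.17, 1.12 and 5.56 CPM. The value of 1.12 CPM rests on 2 counts, with an exact Poisson 95% interval of 0.136 to 4.06 CPM, and the SD over the runs of rat 21 was 3.13 CPM, against 0.733 CPM between the 6 control rats with runs summed. Such intervals cover counting error only. All 3 runs of rat 10 were above all 6 control runs. The runs come from rats that entered the choice of this gene, so their order is no separate evidence.

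For ENSRNOG00000005634 the runs of rat 10 gave 13.9 to 18.7 CPM, those of control rat 21 gave 12.1, 10.7 and 7.94 CPM and those of control rat 27 gave 10.3, 6.95 and 10.02 CPM. Again every run of rat 10 was above every control run. Rat 10 entered the choice of this gene too, and runs of a single rat are not replicates of its group. The SD over runs was 2.39 CPM in rat 10, 2.13 CPM in rat 21 and 1.86 CPM in rat 27, and the SD between whole rats with runs summed was 2.43 CPM in the 20-m group and 3.26 CPM in the control group.

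**Figure D3:**
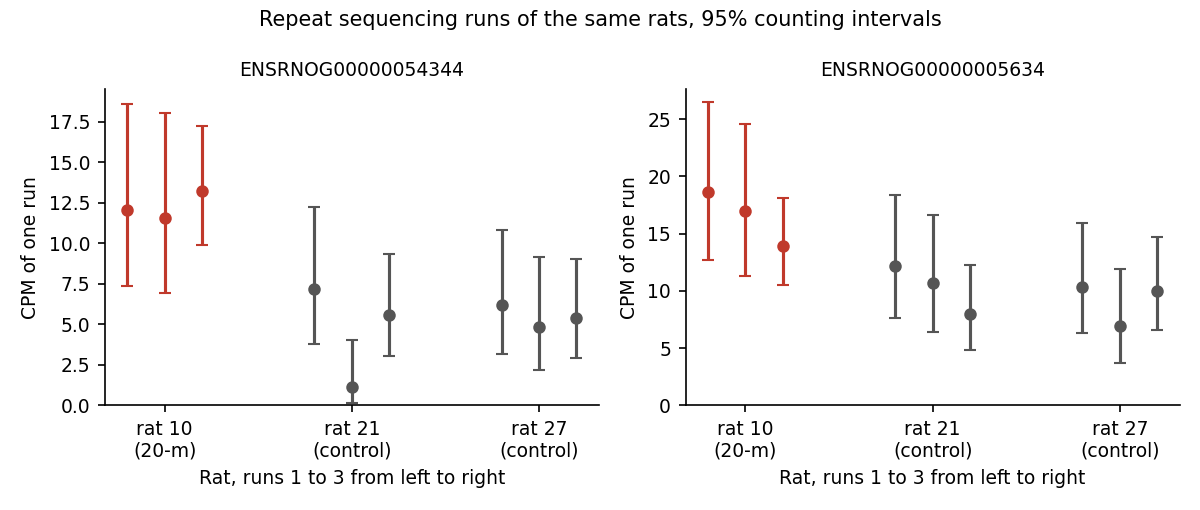
CPM of ENSRNOG00000054344 and ENSRNOG00000005634 in each of the 3 sequencing runs of rat 10 (20-m group) and control rats 21 and 27, on a linear axis with exact Poisson 95% intervals of the count. The second run of rat 21 lies at 1.12 CPM for ENSRNOG00000054344, and all runs of rat 10 lie above the control runs for both genes. Runs of a rat are not separate animals, and rat 10 entered the choice of both genes.

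Beyond counting error, edgeR estimated the coefficient of variation among rats sharing group and batch at 0.145 for ENSRNOG00000054344 and 0.114 for ENSRNOG00000005634. The common value over all genes was 0.146. Fos had 0.274 and Dusp1 0.196, and the 10 early genes ran from 0.128 for Zfp36, which promotes mRNA decay, to 0.338 for Ccn1. ENSRNOG00000005634 was below all 10 and ENSRNOG00000054344 was above Zfp36, as a description without a test. Both unnamed genes were chosen by an adjusted p that depends on this same spread. Such a choice favours genes of small spread, so their low values are no separate trait. The plain SD of log2 CPM within a group includes batch, and its order against Dusp1 varied by group. In the 24-h group it was 0.34 for ENSRNOG00000054344 and 0.27 for ENSRNOG00000005634, against 0.26 for Dusp1 and 0.56 for Fos. In the control group these values were 0.20 and 0.36, against 0.50 and 0.41. In the 20-m group they were 0.23 and 0.18, against 0.21 and 0.37.

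The levels of both genes were then compared with those of Fos and Dusp1 within groups, which does not use the difference between groups that chose them. The log2 CPM of each rat was set against the mean of its own group and batch, which left 17 rats that share both with another rat. Rats were exchanged within group and batch in an exact permutation test of 15552 arrangements (2-sided), and p-values were adjusted over the 5 pairs of genes examined. In rat 7 of the 20-m group, the highest of its group and batch for Fos, ENSRNOG00000054344 deviated by 0.27 and Fos by 0.58. In rat 17 of the 24-h group the same genes deviated by -0.44 and -0.59. Over the 17 rats ENSRNOG00000054344 and Fos had a Pearson's r of 0.498 (exact p = 0.121, adjusted p = 0.302) and a Spearman's rho of 0.407 (exact p = 0.204, adjusted p = 0.355), and deviated to the same side in 11 of 17 rats. Without the 2 rats farthest from the median for ENSRNOG00000054344, rats 12 and 17, r was 0.0361. Group and batch means were taken anew over the rats left, here and wherever rats were left out below. How far the new means lowered r was not tested. Leaving out 1 rat at a time gave an r of 0.285 to 0.679, so its size varied with the rats included.

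ENSRNOG00000054344 and Dusp1 had an r of 0.296 (exact p = 0.209, adjusted p = 0.348) and a rho of 0.316 (exact p = 0.213, adjusted p = 0.355), and r was 0.279 without rats 12 and 17. ENSRNOG00000005634 had an r of -0.173 with Fos (exact p = 0.569, adjusted p = 0.711) and a rho of -0.199 (exact p = 0.506, adjusted p = 0.633). With Dusp1 its r was -0.0012 (exact p = 0.998, adjusted p = 0.998) and its rho -0.115 (exact p = 0.717, adjusted p = 0.717). Without the 2 rats farthest from the median for ENSRNOG00000005634, r was -0.0654 with Fos and 0.212 with Dusp1. The unnamed genes had an r of -0.525 with each other (exact p = 0.0989, adjusted p = 0.302) and a rho of -0.471 (exact p = 0.118, adjusted p = 0.355), with deviations to the same side in 5 of 17 rats and an r of -0.370 without rats 12 and 17. Of the 5 pairs, 0 passed an adjusted p under 0.05. This does not show that covariation between rats is absent.

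**Figure D4:**
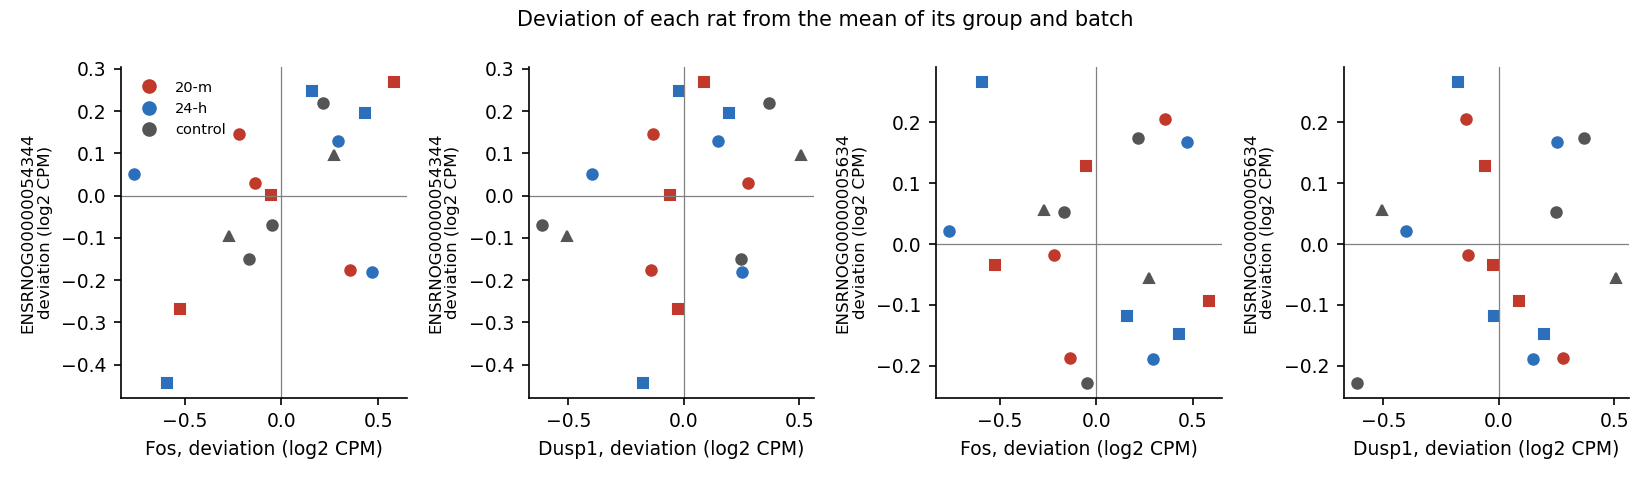
Deviation of log2 CPM from the mean of rats of the same group and batch, for ENSRNOG00000054344 (left pair) and ENSRNOG00000005634 (right pair) on the vertical axis and Fos or Dusp1 on the horizontal axis, in 17 rats. Colour gives the group and shape the batch (circle batch 1, square batch 2, triangle batches 3 to 5). The low rats 12 and 17 lie at the lower left of the first panel, where r is 0.498. When they are left out and the means are taken anew over the other rats, r is 0.0361. That value does not describe the points shown.

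The same deviations were compared with those of all other genes tested, as a description with no test. The r of ENSRNOG00000054344 with 13907 genes had a median of -0.0016 and lay between -0.541 and 0.534 from the 5th to the 95th percentile, for genes whose deviations share the same libraries and depth. Fos was inside this range, with 998 genes above it, and Dusp1 had 3127 genes above it. Of the 10 early genes 6 had a positive r with ENSRNOG00000054344, from -0.391 for Apold1, an early response gene of vascular endothelium, to 0.626 for Ccn1, which encodes a secreted matrix protein and was the only one of the 10 outside the central range. Above Ccn1 stood 228 genes. The median over the 10 was 0.195, and 49.9% of all genes compared had a positive r. Ccn1 rests on few reads outside the 20-m group, 1 to 9 counts per rat in the 24-h group and 1 to 12 in controls. The gene most like ENSRNOG00000054344 was ENSRNOG00000017801, with an r of 0.902 over the 17 rats.

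For ENSRNOG00000005634 the median r was 0.0134 and the same percentiles were -0.467 and 0.480. The number of genes above Fos was 10208, and above Dusp1 7235, which places both near or below the middle of all genes. Of the 10 early genes 5 had a positive r, from -0.221 for Ccn1 to 0.409 for Apold1, with a median of 0.0323, and all 10 lay inside the central range. Of all genes compared, 51.9% had a positive r. Apold1 and Ccn1 stood at opposite ends for the 2 genes, with Ccn1 highest and Apold1 lowest for ENSRNOG00000054344 and the reverse for ENSRNOG00000005634. The 2 genes had an r of -0.525 with each other over the same deviations, so this opposite order is no separate observation. The gene most like ENSRNOG00000005634 was ENSRNOG00000013304, with an r of 0.916.

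**Figure D5:**
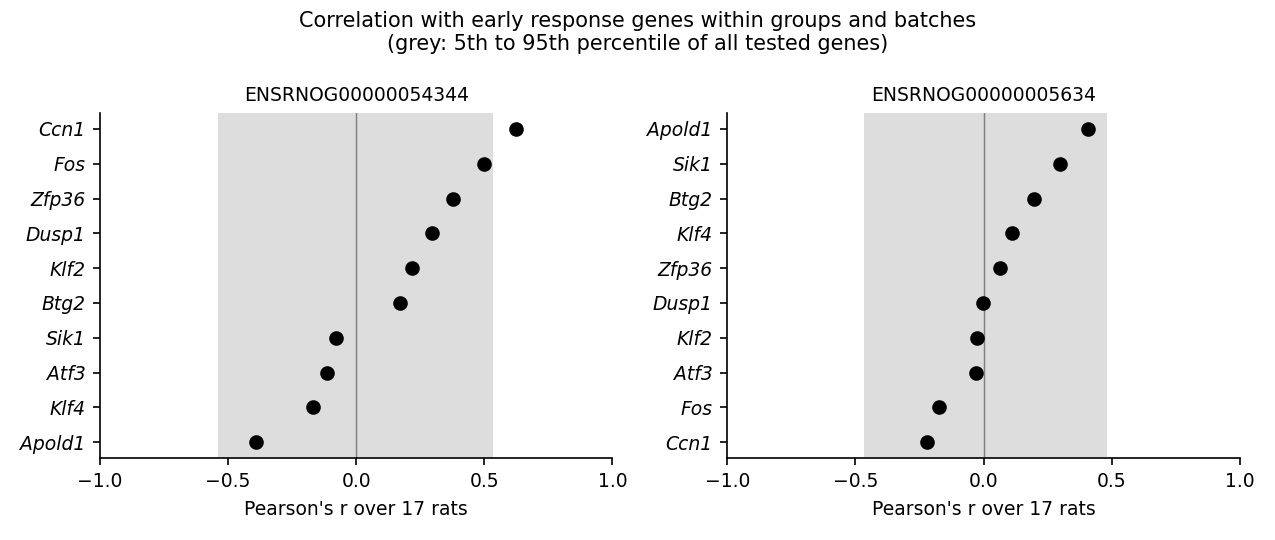
Pearson's r over 17 rats between the deviations of ENSRNOG00000054344 (left) or ENSRNOG00000005634 (right) and those of 10 early response genes, ordered by r. The grey band holds the 5th to 95th percentile of r with all other genes tested. Only Ccn1 at 0.626 leaves the band for ENSRNOG00000054344, and none of the 10 leaves it for ENSRNOG00000005634.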

How the data were processed

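Reads were trimmed by the authors (AdapterRemoval V2) and assigned with STAR and RSEM, whose versions the sources used here do not give, to Rnor 6.0 genes (annotation release 93). The expected counts that the authors deposited are neither normalized nor corrected for batch. The TPM values were also deposited by the authors, for the same 32623 genes in 25 libraries. The 3 runs of rats 10, 21 and 27 were summed, counts were rounded to whole numbers and genes were kept by edgeR's filterByExpr (minimum count 10, minimum total 15). The filter kept both unnamed genes, each with reads in every library. All 19 rats entered 1 quasi-likelihood fit in edgeR, scaled by TMM, with terms for group and batch (batches 3 to 5 as 1 level) and 14 residual degrees of freedom. Each standard error is the size of the log2 fold change over the square root of F. A prior count of 2 was added for log2 CPM. Depth was 6217600 to 9032924 counts per rat, and the precision for these genes is set by 28 to 170 counts per rat. The scripts were tested on simulated data. The tools were edgeR 4.0.16, DESeq2 1.42.0, limma 3.58.1 and sva 3.50.0 under R 4.3.3. Permutations and figures used Python 3.11.15 (scipy 1.17.1, pandas 2.3.3, numpy 2.4.6).

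The 2 genes and the lists were chosen with earlier results of these data known. The genes named are the 2 unnamed genes, Fos, Dusp1, 8 other early genes whose identifiers a supplement of the study pairs with 1 symbol, and the gene most alike to each unnamed gene by r. A further line of that supplement, with the symbol Irf2 and the description immediate early response 2, was left out of the early genes. The list calls and the batch coefficients were added after the data were seen. The study's text gives 6 rats in the 20-m group in one place and 7 in another, and the labels' 7 were used. Alternatives were other scalings, tools, batch treatments, filters, priors, single runs, TPM and leaving out each rat. Neither identifier is in the study's list of changed genes. The line described there as immediate early response 2, under another identifier, has a log2 fold change of 1.02 against controls. ENSRNOG00000054344 had 1.02 in the edgeR fit. Whether that line is the same gene as ENSRNOG00000054344 was not settled. Gene names, positions and sequences of the 2 genes were not used here.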

Additional observations from a re-analysis of the deposited data

How the results depend on the processing

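The log2 fold changes of the 2 unnamed genes kept their direction in all 3 comparisons under each of the 13 other settings and the 19 fits that leave out a rat. In the 2 comparisons that hold the 20-m group this direction follows from the choice of the genes and is no separate evidence. For the 24-h group against controls, the fits that leave out a rat gave 0.20 to 0.41 for ENSRNOG00000054344 and -0.30 to -0.17 for ENSRNOG00000005634, and the other settings 0.22 to 0.32 and -0.26 to -0.16, none of them past the threshold. Exchanging labels over all 12 rats of these groups gave differences of 0.23 (exact p = 0.197) and -0.14 (exact p = 0.461). The number of genes called moved more. For the 20-m group against controls it was 6, against 10 with no filter on low counts, 15 with DESeq2 and 17 with voom, ComBat and limma. For the 20-m against the 24-h group it was 5, against 9, 27 and 39 in the same settings, and 4 to 9 when a rat was left out, with 9 without rat 2 of the 20-m group. The cause was not tested. ENSRNOG00000054344 was not called against controls in batches 1 and 2 alone, with run 1 alone or on TPM values (log2 fold changes of 0.94, 0.92 and, with pseudocounts of 0.5 and 0.1, 0.91 and 0.97).

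The replicate numbers in the labels mark animals, and the repeat runs of rats 10, 21 and 27 carry the number of their rat. All 25 libraries were also entered separately in limma voom, with terms for group and the 5 batches. The rat was the block for the correlation between libraries. For the 20-m group this fit called 20 genes (19 higher, 1 lower) against controls and 19 (11 higher, 8 lower) against the 24-h group. It called 0 for the 24-h group against controls. Its libraries were correlated within a rat at 0.42 and are not all separate animals.

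Of the correlations, those of ENSRNOG00000005634 lay near 0 and changed sign. With Fos, r was 0.013 when only group was removed and 0.117 on TPM, and -0.339 to 0.0982 when a rat was left out, the last without rat 17. With Dusp1, r was 0.0299 when only group was removed, 0.0003 with a prior count of 0.5, 0.259 on TPM, 0.104 with library sizes only, 0.212 without the 2 farthest rats, 0.0927 in batches 1 and 2 and -0.401 to 0.116 when a rat was left out. The r of ENSRNOG00000054344 with Fos was 0.0361 to 0.622 over 7 other settings, and residuals of an additive fit over 19 rats came nearest to the threshold (r = 0.610, permutation adjusted p = 0.0775, and rho = 0.626, permutation adjusted p = 0.052, same side in 14 of 19 rats). None of the 5 pairs passed under any setting, by r or by rho. ENSRNOG00000054344 rests on 28 to 46 counts and ENSRNOG00000005634 on 59 to 130 per control rat, and how far depth limits these correlations was not tested.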
